A study of Mus musculus with 39 samples.

Results

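Lungs of sham mice sampled after a break were compared with lungs of sham mice sampled without one, 6 week break sham against 6 week sham, and neither group breathed smoke. The members were chosen by sample title and not by any measured value, and they make up 10 of the 39 arrays of the series, 5 break sham and 5 sham. Total lung RNA was measured on 2-colour oligonucleotide arrays, 1 mouse per array, in a study of mainstream tobacco smoke which held smoke and sham groups at 6 and at 12 weeks and the same groups after a break. All mice were males of an F1 cross of C57BL/6 and CBA, labelled as 8 to 10 weeks old. The 6 week break sham mice were held in restrainers without smoke over 6 weeks and then left for a further 6 weeks without exposure. The 6 week sham mice were held in restrainers over 6 weeks and sampled at the end of that period. The labels give 3 h after exposure for both groups, and neither labels nor methods give the clock time of sampling, so the end of restraint, the time of day and 6 more weeks of life cannot be told apart in this contrast.

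Many genes of the lung follow the time of day. In the circadian clock, the transcription factors ARNTL (BMAL1) and CLOCK bind short DNA motifs called E-boxes and switch on the Per and Cry genes, whose proteins return to block ARNTL and CLOCK, and they also drive output factors of the PAR bZIP family such as DBP. REV-ERB proteins (Nr1d1, Nr1d2) repress Arntl and ROR proteins activate it. Restraint is a classic stressor in rodents that raises glucocorticoids, hormones which act through their receptor on genes such as Tsc22d3 and Fkbp5 and which also reset clocks of peripheral tissues through Per1 and Per2.

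Every value below is a log2 ratio of lung to a common reference RNA on the same array, so that a difference of 1 between arrays is a 2-fold difference between lungs. The 5 mice of each group carry the names m1 to m5, and equal names in different groups mark no pairs. Median Cy5 signal was 2.61 to 8.16 times the local background on break sham arrays and 2.24 to 8.99 times on sham arrays. Between 62.7% and 94.6% of probes exceeded the negative control threshold on break sham arrays, and between 66.9% and 90.5% on sham arrays. Markers of alveolar type II cells, the surfactant-producing epithelium of the lung, averaged log2 ratios of 3.00 to 4.02 on break sham arrays and 2.85 to 3.92 on sham arrays. One array went against its label. The library labelled 6 week sham m2 had a log2 ratio of 6.46 for Cyp1a1, a cytochrome P450 that smoke induces through the aryl hydrocarbon receptor, where break sham arrays had 0.828 to 2.05, the other sham arrays 1.25 to 2.81 and the 9 smoke arrays of the series 5.07 to 8.06. Its values for Cyp1b1 (2.00), Nqo1 (0.547) and Ahrr (2.52) also lay above those of all other arrays without current smoke. The main counts are therefore given with and without this array, and values for it stand under its label.

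**Figure D1:**
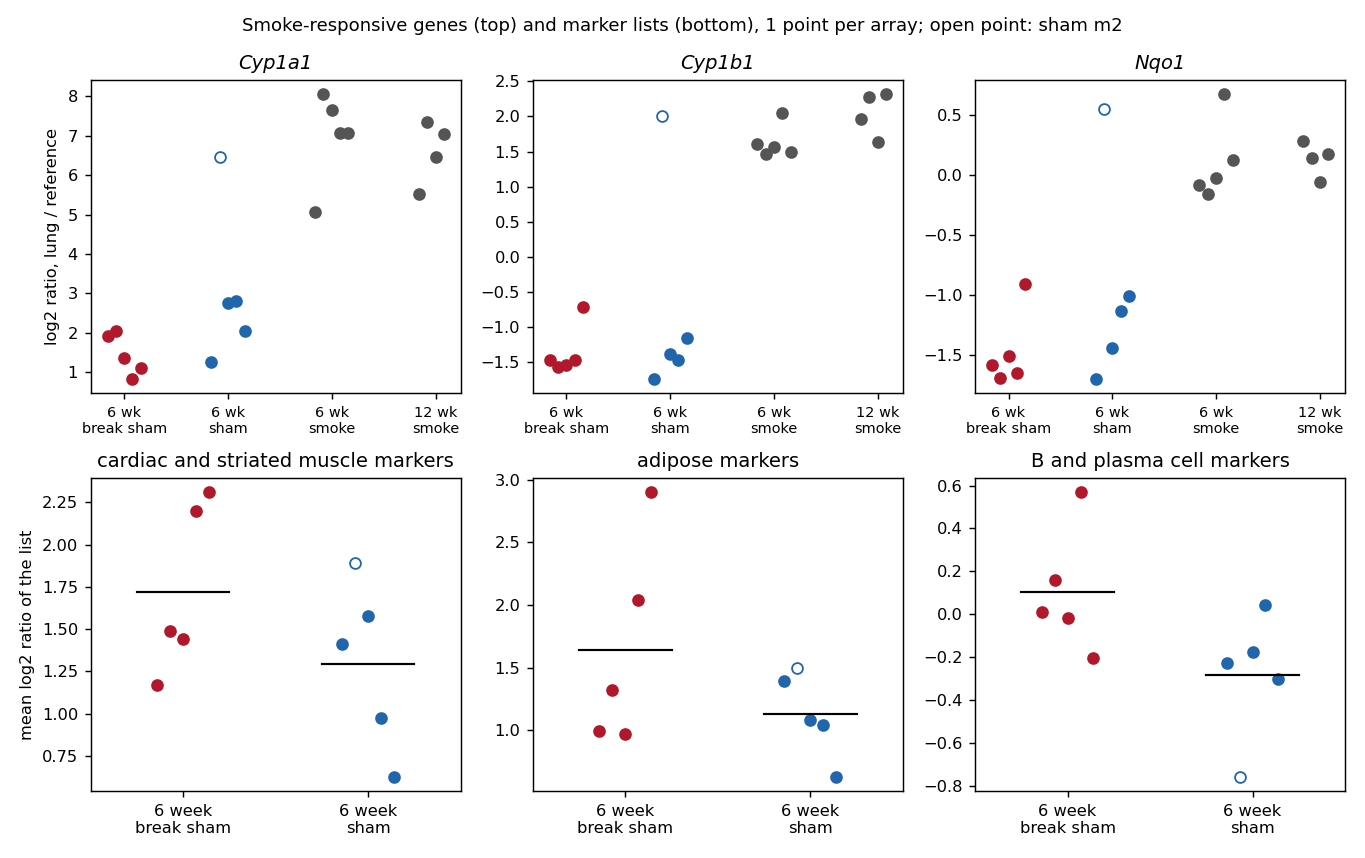
Log2 ratios of Cyp1a1, Cyp1b1 and Nqo1 by array in 6 week break sham, 6 week sham, 6 week smoke and 12 week smoke (top), and mean log2 ratio of 3 marker lists by array in 6 week break sham and 6 week sham with the group mean as a line (bottom). The open point is sham m2, at 6.46 for Cyp1a1 among sham arrays of 1.25 to 2.81. Break sham m4 and m5 carry the highest mean log2 ratios of the muscle and adipose lists among the 10 arrays.

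The E-box through which ARNTL and CLOCK act has the letters CACGTG and reads the same on both strands. It was looked for in the 250 bases before each start site in RefSeq promoters of mouse build GRCm38.p6. Of the 23 genes called lower in break sham with all arrays, 18 had a promoter in that table and 4 of these held the motif (22.2%), and of the 26 called higher, 18 had one and 2 held it (11.1%). Of 15 clock genes with a promoter, 4 held it (26.7%), and 6.86% of all 27025 genes listed did. Of the genes called without sham m2, 14 lower genes had a promoter there and 5 held the motif (35.7%), and 11 higher genes had one and 2 held it (18.2%). A gene counted as holding the motif where any of its listed promoters did. By promoter, the motif was in 14.8% of 27 for genes called lower and 7.69% of 26 for those called higher. It was in 25% of 20 for clock genes and in 6.02% of all 32851. Without sham m2 these were 25% of 20 for lower and 11.1% of 18 for higher genes. The genes listed are those of the promoter table and not only those measured here. These matches describe letters and no binding was measured. Of the called clock genes, Dbp, Hlf and Arntl had promoters there without the motif, and Per2 had no promoter in that table. The 4 promoters of the genes lower with all arrays are shown with that of the clock gene Cry1, which was not called. They are given 5′ to 3′ on the strand of the gene, with the E-box in capitals. They lie at chr4:149774268-149774517 (minus strand, Slc25a33), chr7:141476130-141476379 (plus strand, Tspan4), chr17:71183282-71183531 (plus strand, Lpin2), chr17:66077047-66077296 (minus strand, Ankrd12) and chr10:85185055-85185304 (minus strand, Cry1). The match in Ankrd12 occurs at 2 places.
Slc25a33: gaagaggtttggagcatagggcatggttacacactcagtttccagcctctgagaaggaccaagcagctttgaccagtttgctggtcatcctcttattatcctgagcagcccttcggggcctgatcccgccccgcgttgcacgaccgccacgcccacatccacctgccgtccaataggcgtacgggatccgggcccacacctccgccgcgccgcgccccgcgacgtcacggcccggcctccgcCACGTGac
Tspan4: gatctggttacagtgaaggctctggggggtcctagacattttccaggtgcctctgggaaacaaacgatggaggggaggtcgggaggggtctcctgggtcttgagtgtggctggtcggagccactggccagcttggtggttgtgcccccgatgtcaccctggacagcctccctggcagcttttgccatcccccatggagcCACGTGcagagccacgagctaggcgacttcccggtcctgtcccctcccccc
Lpin2: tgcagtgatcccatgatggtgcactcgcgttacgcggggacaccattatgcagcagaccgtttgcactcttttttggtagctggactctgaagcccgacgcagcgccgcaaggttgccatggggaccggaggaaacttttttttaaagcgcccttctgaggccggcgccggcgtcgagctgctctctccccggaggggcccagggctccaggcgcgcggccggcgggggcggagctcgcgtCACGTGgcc
Ankrd12: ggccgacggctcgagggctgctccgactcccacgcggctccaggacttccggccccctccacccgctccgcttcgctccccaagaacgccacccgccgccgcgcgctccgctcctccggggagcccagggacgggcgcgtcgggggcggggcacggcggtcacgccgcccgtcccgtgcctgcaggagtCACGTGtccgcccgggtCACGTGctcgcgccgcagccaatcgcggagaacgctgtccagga
Cry1: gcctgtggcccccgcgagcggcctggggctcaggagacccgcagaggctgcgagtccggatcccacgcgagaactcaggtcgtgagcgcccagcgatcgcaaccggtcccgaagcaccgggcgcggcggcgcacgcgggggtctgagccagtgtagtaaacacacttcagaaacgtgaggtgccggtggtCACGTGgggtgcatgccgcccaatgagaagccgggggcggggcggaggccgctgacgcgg

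The calls between the sham groups included 4 of 17 measured clock genes, Per2, Hlf and Dbp lower in break sham and Arntl higher, and genes of varied other functions. Arntl was kept for the test only through groups sampled after a break, where it was brighter. In a limma model of all 39 arrays, 51 of 17560 probes (0.290%) passed an adjusted p of 0.05 (Benjamini-Hochberg), 26 higher in break sham (0.148%) and 25 lower (0.142%), and 1630 had an unadjusted p below that value. Without sham m2, 35 probes passed (0.199%), 15 higher (0.0854%) and 20 lower (0.114%), and 1413 had an unadjusted p below the same value. The fits shared 31 probes, 13 higher and 18 lower, and the 55 probes called in either had the same sign in both. Among the 51 called probes, 28 had no overlap between the 5 break sham and the 5 sham values, against 151 (0.86%) of all probes tested, and among the 35 called without sham m2, 21 had none, against 254 (1.45%). The median log2 difference over all probes was 0.0093. In bulk lung, fewer cells of a type and less RNA per cell cannot be told apart.

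All 8 groups share the estimate of the spread in this model, and the number of calls changed with the arrays and the block in the fit. The part of the shared spread in this was not tested. With the 10 arrays alone, limma called 2 probes without the label run block and 0 with it (824 probes at an unadjusted p below 0.05). With the 4 sham groups alone it called 5. Without the run block it called 15. With each array centred on its median in place of loess, 80.0% of 55 calls were higher in break sham, where 51.0% of the 51 were. The label runs are 5 successive series of exposure-date labels that hold the groups in turn. Within each of the 4 runs that hold both groups (sham m2 left out), break sham exceeded sham for all 26 probes called higher, and was below sham for 22 of the 24 named probes called lower, with Osgin1 and Eml1 at 0.01 in 1 run each. These probes were chosen by their differences on the same arrays and runs, so the counts are no separate support. The share over all probes was not computed.

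**Figure D2:**
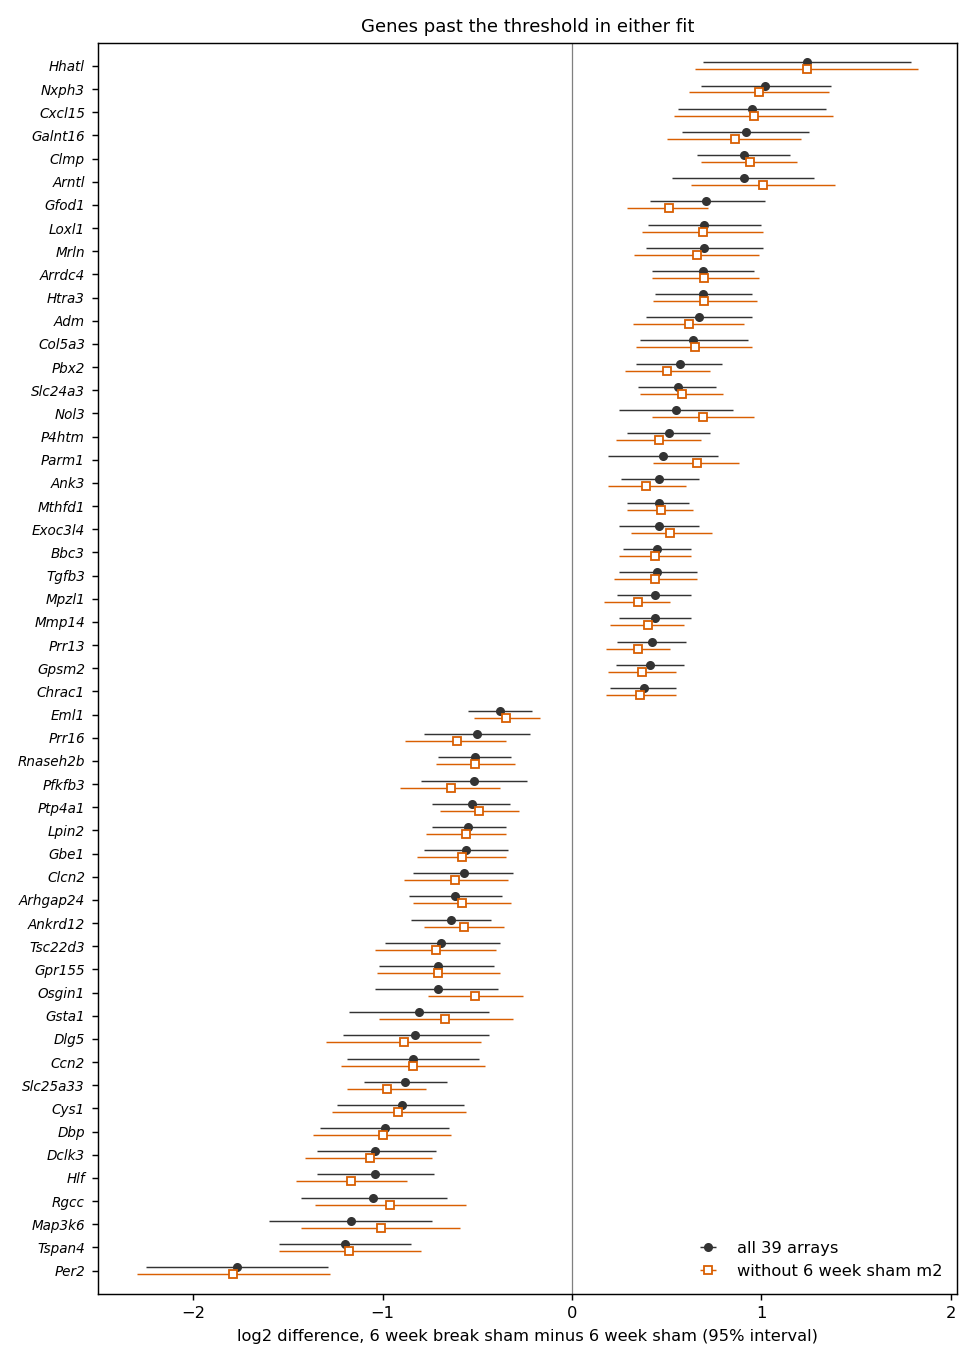
Log2 difference of 6 week break sham minus 6 week sham with its 95% interval for every named gene past the threshold with all 39 arrays (filled) or without sham m2 (open squares). Per2 is the lowest at -1.77 and -1.79, Hhatl the highest at 1.24 in both, and no gene changes its side of 0.

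Among the repressors of the clock, Per2 showed the largest difference of all called genes. Its log2 ratio was 1.43, 2.09, 1.32, 1.14 and 1.82 in break sham m1 to m5, against 2.98, 3.38, 3.37, 3.57 and 3.45 in sham m1 to m5. Every break sham lung lay below every sham lung, and sham m2 sat among the other shams. The mean was 1.56 ± 0.39 in break sham and 3.35 ± 0.22 in sham (SD, n = 5 each), and Per2 was 3.41-fold lower in break sham, with a log2 difference of -1.77 (SE 0.23, adjusted p = 1.02e-04; without sham m2 -1.79, adjusted p = 3.05e-04).

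The other repressors had values below 0 with all arrays and did not pass the test. Cry1, which blocks ARNTL and CLOCK together with the PER proteins, had log2 ratios of -0.227, -0.827, -0.180, -0.404 and -0.298 in break sham and 0.355, 0.614, 0.161, 0.0639 and 0.687 in sham. Break sham values did not overlap those of sham, yet the difference of -0.72 (SE 0.18) had an adjusted p of 0.0846, and 0.199 without sham m2. Differences were -0.66 for Bhlhe41 and -0.37 for Bhlhe40, helix-loop-helix proteins that compete for the E-box, -0.59 for Per1, -0.09 for Cry2 and -0.03 for Per3, with adjusted p-values of 0.293 to 0.979. All 7 measured repressors had values below 0 with all arrays, and 6 of 7 without sham m2, where Per3 was at 0.01. In both fits 5 of them had an unadjusted p below 0.05, and 1 (Per2) was called lower and 0 higher. Their median difference was -0.59 with all arrays and -0.65 without sham m2, where all probes had 0.0093 and 0.009.

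The PAR bZIP factors, which carry the rhythm of the clock to other genes, gave the next calls. Hlf had log2 ratios of 0.595, 1.30, 0.448, 1.38 and 1.26 in break sham, against 1.53, 1.87, 1.67, 2.51 and 2.78 in sham. The highest break sham value was below the lowest sham value, and the difference was -1.04 (SE 0.15, 2.05-fold, adjusted p = 4.91e-04), or -1.17 without sham m2 (adjusted p = 4.93e-05). Dbp had log2 ratios of 0.263, 0.963, 0.835, 0.561 and 0.837 in break sham, against 0.574, 1.67, 1.81, 2.22 and 2.01 in sham. Sham m1 fell within the break sham range and the other 4 shams lay above it. The difference for Dbp was -0.99 (SE 0.17, 1.98-fold, adjusted p = 0.00361; without sham m2 -1.0, adjusted p = 0.00937), and its spots were at the scanner limit on 1 break sham and 2 sham arrays, so that its highest signals are bounded. Tef, a further member of the family, differed by 0.08, and Nfil3, a repressor that competes for the same sites, by 0.07, both far from the threshold (adjusted p of 0.94 and 0.937).

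On the activating side, Arntl was the 1 clock gene that rose. Its log2 ratios were 0.0503, 0.0902, -0.0036, 0.267 and -0.151 in break sham, against -1.24, -0.352, -0.585, -1.11 and -0.877 in sham, with no overlap. Arntl was dim, above the negative control threshold on 4 of 5 break sham arrays and not well above background on any sham array. Set against the sham floor, the higher on each array of the dimmest level above the threshold and the measured signal of the probe, it was at least 1.60-fold higher in break sham. It passed the probe filter only through groups sampled after a break, which had 4 or 5 arrays above the threshold. The fitted difference, which sets signal against sham values not above that threshold, was 0.91 (SE 0.18, adjusted p = 0.017) with all arrays. Without sham m2 it was 1.01 (adjusted p = 0.0108). Values of its partners Clock (0.21) and Npas2 (0.23) and of Nr1d1 (0.32), Nr1d2 (-0.43) and Rora (-0.38) did not pass, with adjusted p-values of 0.233 to 0.87. Of 6 measured activators and nuclear receptors, 1 was called higher and 0 lower, and the median difference was 0.22.

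**Figure D3:**
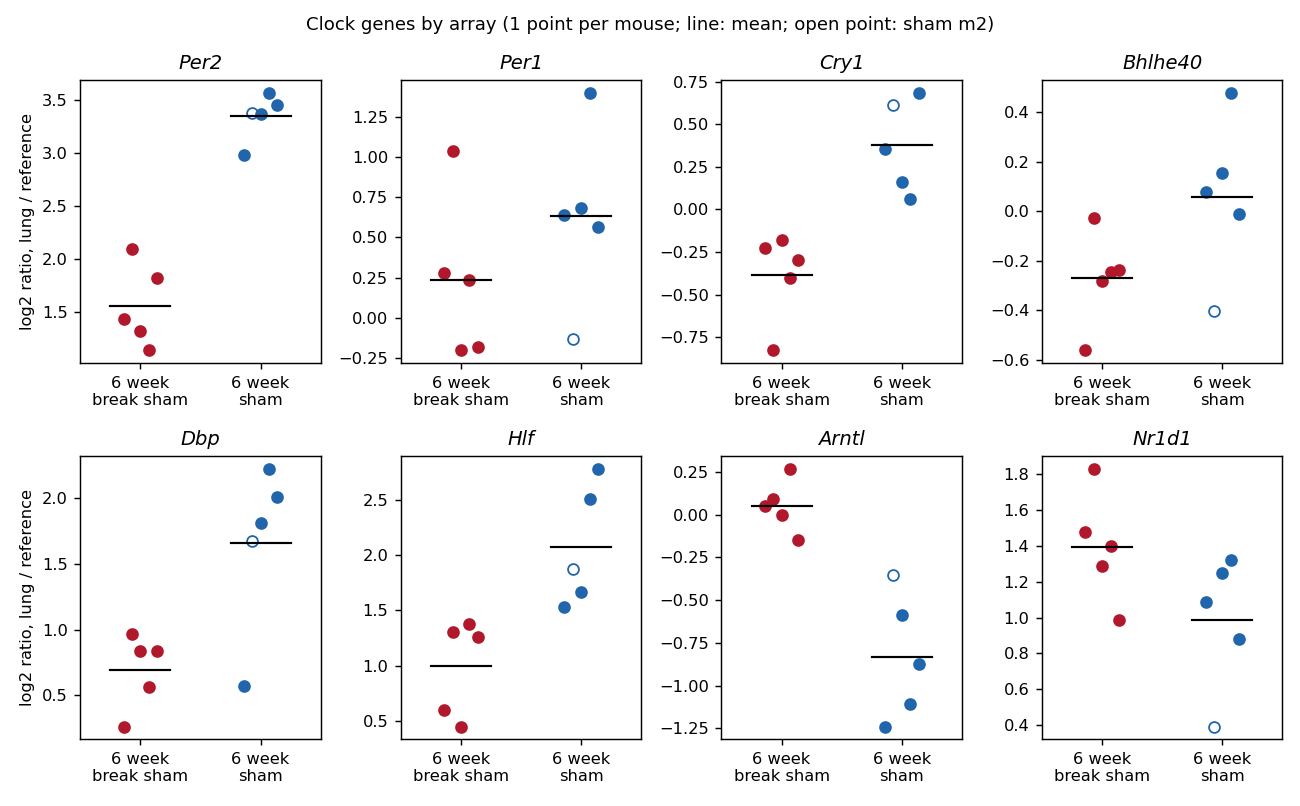
Log2 ratio of lung to reference by mouse for 8 clock genes in 6 week break sham (left) and 6 week sham (right), with group means as lines and sham m2 as the open point. Per2, Cry1, Hlf and Arntl show no overlap of the groups, Per2 with 1.14 to 2.09 in break sham and 2.98 to 3.57 in sham. Arntl was not above the negative control threshold on any sham array.

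Among 25 measured glucocorticoid-responsive genes, 0 were called higher and 2 lower in break sham. Tsc22d3, which encodes the anti-inflammatory leucine zipper protein GILZ, had log2 ratios of 2.25, 2.97, 2.34, 2.79 and 2.35 in break sham, against 2.89, 3.00, 3.08, 3.56 and 3.37 in sham. Break sham m2 lay above sham m1 and the other 4 break shams lay below all shams. The difference was -0.69 (SE 0.15, 1.61-fold, adjusted p = 0.0282), and -0.72 without sham m2 (adjusted p = 0.0393).

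Map3k6, a stress-activated kinase of the MAPK cascade, had log2 ratios of 0.857, 1.44, 0.412, 0.766 and 0.0435 in break sham, against 1.27, 2.52, 1.42, 1.83 and 2.00 in sham. Only break sham m2 reached into the sham range, and sham m2 was the highest of the 10 arrays. Its difference was -1.17 (SE 0.21, 2.25-fold, adjusted p = 0.00558), and -1.01 without sham m2 (adjusted p = 0.0223). Other members of the list had values on both sides of 0 that did not pass. They included Cebpd, a transcription factor of the acute phase (-0.65), Fkbp5, a chaperone of the glucocorticoid receptor (-0.41), the metallothionein Mt2 (-0.46), the kinase Sgk1 (0.32) and the cell cycle inhibitor Cdkn1a (0.41). With all arrays 18 of 25 members had a value below 0 and the median was -0.18, and without sham m2 these were 17 and -0.23, with the same count of 2 called lower. Immediate early genes, which respond within minutes to many stimuli, had a median of -0.11 and 0 calls among 25, and heat shock genes had -0.11 and 0 calls among 18. Without sham m2 these medians were -0.13 and -0.02, again with 0 calls. The mean log2 ratio of the heat shock list was 0.77 in sham m2 and -0.0659 to 0.0389 in the other shams.

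Slc25a33, a mitochondrial carrier of pyrimidine nucleotides, had the smallest p of all probes. Log2 ratios were -0.882, -0.285, -0.975, -1.0 and -0.817 in break sham, against -0.0126, -0.301, 0.153, 0.243 and 0.164 in sham. Break sham m2 and sham m2 met at the border of the groups and the others were apart. The difference was -0.88 (SE 0.11, 1.84-fold, adjusted p = 9.44e-05) and widened to -0.98 without sham m2 (adjusted p = 2.23e-06).

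Tspan4, a tetraspanin of cell membranes, had log2 ratios of 0.0866, -0.479, -0.509, -0.646 and -0.861 in break sham, against 0.267, 0.719, 0.791, 0.919 and 0.662 in sham, again without overlap (difference -1.20, SE 0.17, 2.30-fold, adjusted p = 3.23e-04; without sham m2 -1.18, adjusted p = 0.0013). Its spots were at the scanner limit on 1 sham array. Both genes carry an E-box in the promoters printed above, as do Lpin2 and Ankrd12, though the other listed promoters of Tspan4 and Lpin2 held none. Lpin2, a phosphatidate phosphatase of lipid synthesis, fell by 0.55 on the log2 scale (adjusted p = 0.00492) and Ankrd12, an ankyrin repeat cofactor of nuclear receptors, by 0.64 (adjusted p = 0.0017). Further probes of Ankrd12 gave -0.27 and -0.17 and a further one of Lpin2 gave -0.02, none past the threshold.

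Other genes lower in break sham had varied functions. Dclk3, a doublecortin-like kinase, had a mean of -1.90 ± 0.15 in break sham and -0.81 ± 0.19 in sham (SD, n = 5 each), without overlap (difference -1.04, adjusted p = 5.52e-04). Rgcc, a regulator of the cell cycle, fell by 1.05 on the log2 scale (adjusted p = 0.00558), with spots at the scanner limit on 1 sham array, and Cys1, a protein of the primary cilium, by 0.90 (adjusted p = 0.00576). Ccn2, a matricellular protein also known as connective tissue growth factor, averaged 1.74 ± 0.68 in break sham and 2.52 ± 0.64 in sham, with a difference of -0.84 (adjusted p = 0.0208) and with m1 the lowest array of both groups. Spots of Ccn2 were at the scanner limit on 1 break sham and 2 sham arrays, as those of Dbp were. Gbe1, the glycogen branching enzyme, differed by -0.56, Rnaseh2b, a subunit of ribonuclease H2, by -0.51, and Arhgap24, which switches off Rac, by -0.62, and these 3 passed with and without sham m2. A second probe of Arhgap24 gave -0.07 (adjusted p = 0.963). Ptp4a1, a membrane-bound phosphatase, was called by 2 probes (-0.53 and -0.51), the second of which had an adjusted p of 0.0653 without sham m2, and its remaining probe gave -0.42 (adjusted p = 0.181). Dlg5, a scaffold of cell junctions, differed by -0.83 (adjusted p = 0.0482; 0.0567 without sham m2), but it exceeded the threshold on 1 of 5 sham arrays another probe of it gave 0.05, and its difference was -0.40 without background correction.

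Genes higher in break sham were led, by p, by Clmp, an adhesion protein of cell junctions. Its log2 ratios were -0.276, -0.398, -0.261, -0.273 and -0.721 in break sham, against -1.54, -1.25, -1.29, -1.48 and -1.02 in sham. The groups did not overlap, and the difference was 0.91 (SE 0.12, 1.87-fold, adjusted p = 1.02e-04), or 0.94 without sham m2 (adjusted p = 1.58e-04). Nxph3, a secreted neurexophilin, had 2.02, 2.06, 2.01, 2.91 and 2.80 in break sham, against 1.11, 1.39, 1.36, 1.64 and 1.5 in sham, with no overlap (difference 1.02, SE 0.17, 2.03-fold, adjusted p = 0.00272; without sham m2 0.99, adjusted p = 0.00937). Galnt16, which starts mucin-type sugar chains on proteins, differed by 0.92 (SE 0.16, adjusted p = 0.00558; without sham m2 0.86, adjusted p = 0.0214), and by 0.44 when spots marked by the scanner software were left out (adjusted p = 0.445).

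Cxcl15, a chemokine of lung epithelium that attracts neutrophils, had log2 ratios of 5.08, 6.65, 6.36, 6.14 and 5.70 in break sham, against 4.38, 5.11, 5.04, 4.89 and 5.39 in sham. Break sham m1 lay within the sham range and the other 4 above it. The difference was 0.95 (SE 0.19, 1.93-fold, adjusted p = 0.0158; without sham m2 0.96, adjusted p = 0.0327), and it was 0.04 when spots marked by the scanner software were left out. It was the 1 call among 11 measured alveolar type II markers, whose median difference was 0.09. Htra3, a secreted serine protease (0.69), Mthfd1, an enzyme of folate metabolism (0.46), Slc24a3, a calcium exchanger (0.56), Bbc3, the apoptosis inducer PUMA (0.45), Pbx2, a homeobox factor (0.57), and Arrdc4, an arrestin-like adaptor (0.69), passed with and without sham m2. A second probe of Arrdc4 gave 0.19 (adjusted p = 0.75).

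Further calls were spread over other functions. Clcn2, a chloride channel (-0.57), Gfod1, an oxidoreductase-like gene (0.71), and Exoc3l4, related to a subunit of the exocyst (0.46), passed with and without sham m2, and a second probe of Gfod1 gave 0.60 (adjusted p = 0.268). Gpr155, a lysosomal membrane protein (-0.71), and Eml1, a microtubule-binding protein (-0.38), were lower with all arrays alone. Chrac1, a chromatin remodelling subunit (0.38), Gpsm2, which orients the mitotic spindle (0.41), Prr13 (0.42), the adhesion protein Mpzl1 (0.44), the membrane anchor Ank3 (0.46) and the hydroxylase P4htm (0.51) were higher with all arrays alone. Without sham m2 these 8 genes had adjusted p-values of 0.0599 to 0.109 and differences of the same sign. The 1 further probe called, among those lower, has no single gene symbol and is not named.

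Called only without sham m2 were Parm1, Nol3, Pfkfb3 and Prr16. Parm1, a membrane protein, was at 1.45 in sham m2 and at 0.179 to 0.534 in the other shams, against 0.613 to 1.5 in break sham, and its difference was 0.66 without sham m2 (adjusted p = 0.00476) and 0.48 with it (adjusted p = 0.222). A second probe of Parm1 gave 0.06 without sham m2 (adjusted p = 0.964) and 0.05 with it. Nol3, an inhibitor of apoptosis, differed by 0.69 without sham m2, Pfkfb3, which sets the pace of glycolysis, by -0.64, and Prr16 by -0.61, with adjusted p-values of 0.0146, 0.0201 and 0.0319. The difference of Prr16 was -0.24 when spots marked by the scanner software were left out.

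**Figure D4:**
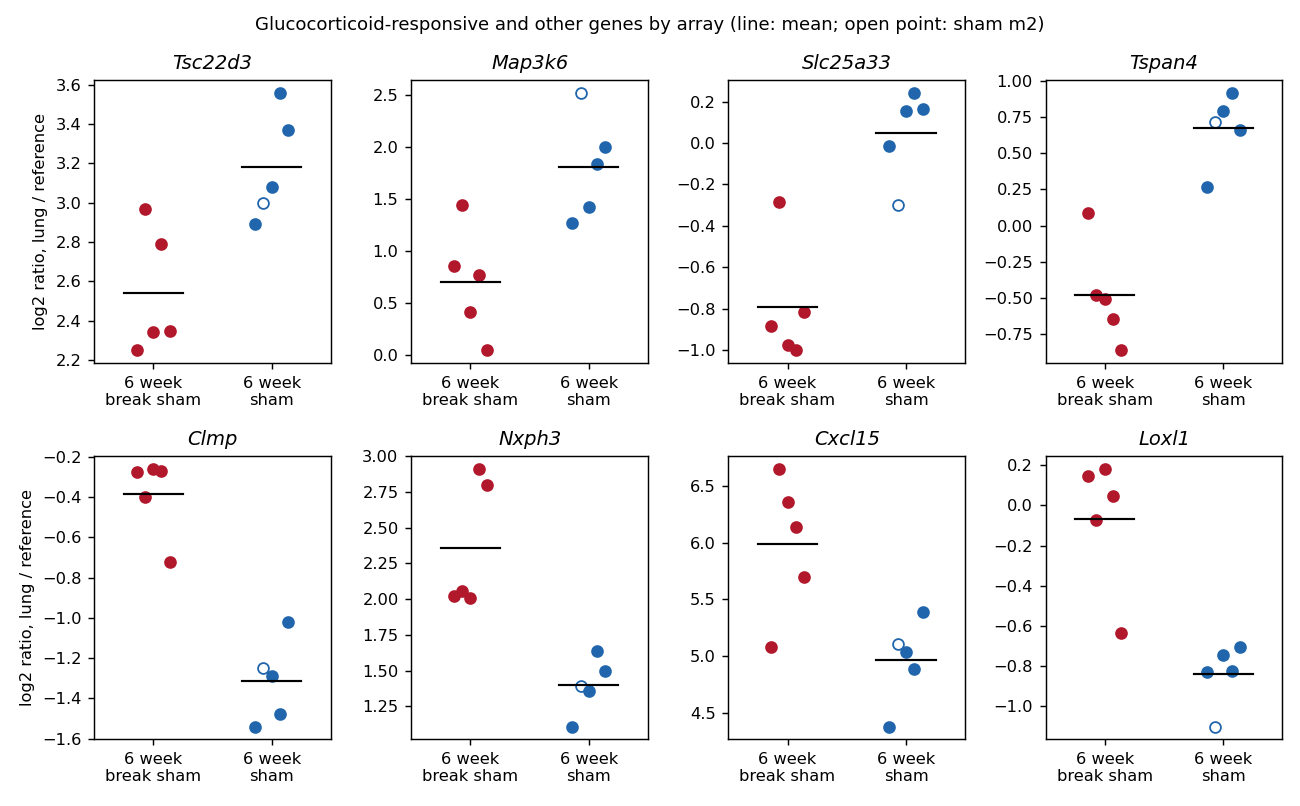
Log2 ratio of lung to reference by mouse for Tsc22d3, Map3k6, Slc25a33, Tspan4, Clmp, Nxph3, Cxcl15 and Loxl1 in 6 week break sham (left) and 6 week sham (right), with group means as lines and sham m2 as the open point. Tspan4, Clmp, Nxph3 and Loxl1 show no overlap, and Cxcl15 overlaps at break sham m1 (5.08).

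Several matrix genes were called only with sham m2 in the fit. Loxl1, an enzyme that cross-links elastin, had log2 ratios of 0.145, -0.0717, 0.181, 0.0489 and -0.635 in break sham, against -0.831, -1.10, -0.745, -0.822 and -0.705 in sham, with no overlap. Its difference was 0.70 (adjusted p = 0.0226) with all arrays and 0.69 (adjusted p = 0.0599) without sham m2. The collagen chain Col5a3 (0.64, then 0.65 without sham m2), the membrane protease Mmp14 (0.44, then 0.40) and the growth factor Tgfb3 (0.45, then 0.44) passed with all arrays and had adjusted p-values of 0.0621, 0.0745 and 0.0758 without sham m2, and so did the vasodilator peptide Adm (0.67, then 0.62, adjusted p = 0.067). The 39 measured genes of the collagen and matrix list had a median of 0.01 in both fits, with 20 values above 0 and 19 below, 1 call (Loxl1) with all arrays and 0 without sham m2. Elastin (Eln, 0.51) and Col3a1 (0.50) had positive values and Timp3, an inhibitor of matrix proteases, a negative one (-0.59), none past the threshold.

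The lists of proliferation and imprinted growth genes gave no call. The 34 measured proliferation genes had a median of -0.11, with 27 values below 0 and 0 calls, and 3 lay below 0 with an unadjusted p below 0.05. Without sham m2 the median was -0.14, with 29 values below 0 and 0 calls. Cyclin E (Ccne1, -0.39, adjusted p = 0.293) and the mitotic kinesin Kif20a (-0.37, adjusted p = 0.389) were the lowest. Imprinted growth genes had 0 calls among 12 and a median of 0.07, with Nnat at 0.60 and H19 at -0.23.

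Of the listed Nrf2 targets and genes responsive to the aryl hydrocarbon receptor, those called with all arrays were not called without sham m2. Map3k6, which the paper lists as higher after smoke, and Clcn2, which it lists as lower, were called in both fits. Chrac1 and Ank3, which it lists as higher and lower after smoke, were called with all arrays alone. Gsta1, a glutathione transferase, had log2 ratios of 0.154, 0.298, 0.0226, 0.128 and 0.522 in break sham, against 1.78, 1.90, 0.482, 0.446 and 0.813 in sham, where m1 and m2 were high. Its difference of -0.81 (adjusted p = 0.0358) became -0.67 (adjusted p = 0.135) without sham m2. Osgin1, an oxidative stress response gene, was at 2.30 in sham m2, and its difference of -0.71 (adjusted p = 0.0379) became -0.51 (adjusted p = 0.0758). Of 22 Nrf2 targets, the antioxidant programme, these 2 were called lower with all arrays and 0 without sham m2, and the median difference was -0.17 and then -0.04. Cyp1a1 differed by -1.58 with all arrays and by -0.82 without sham m2 (adjusted p of 0.378 and 0.692). Tiparp, a target of the aryl hydrocarbon receptor, differed by -0.28 and then -0.29, and Gsta3, a further glutathione transferase, by -0.37 and then -0.33. The 8 genes responsive to the aryl hydrocarbon receptor had medians of -0.29 and -0.06 with 0 calls.

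Marker lists of tissues other than lung parenchyma varied between arrays. The 20 measured markers of cardiac and striated muscle had a median difference of 0.53, and 0.63 without sham m2, with 18 values above 0 and 0 calls in both fits. Their mean log2 ratio was 1.17, 1.49, 1.44, 2.20 and 2.31 in break sham m1 to m5, against 1.41, 1.89, 1.58, 0.976 and 0.624 in sham m1 to m5. Break sham m4 and m5 were high and sham m4 and m5 low, and the other arrays overlapped. Defining markers of heart were present on most arrays, with Tnni3 at 2.57 to 4.34 in break sham and 1.75 to 3.80 in sham.

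The 10 adipose markers had a median difference of 0.62, and 0.75 without sham m2, with 9 values above 0 and 0 calls in both fits. Their mean was 0.996, 1.32, 0.967, 2.04 and 2.90 in break sham, against 1.39, 1.5, 1.08, 1.04 and 0.626 in sham. The summed Cy5 signal of the list, not normalized, was 8420 to 36500 in break sham and 5300 to 145000 in sham. For the muscle list it was 92400 to 175000 and 21900 to 183000. Ucp1, the marker of brown fat, was at 4.68 in break sham m5 and at 1.08 or below in the other 9 arrays. Nxph3 and Galnt16 were also highest in break sham m4 and m5. In break sham m1 to m3, Nxph3 lay above all shams. Hhatl, an acyltransferase-like gene of heart and muscle, and Mrln, which encodes a micropeptide of the muscle calcium pump, were called higher with all arrays (1.24 and 0.70, adjusted p of 0.0291 and 0.0293) but had adjusted p-values of 0.0678 and 0.0891 without sham m2. Hhatl was highest in break sham m1 (2.89), where the mean of the muscle list was 1.17. Markers of B and plasma cells had a median of 0.26 in both fits, with 8 values above 0, 5 below and 0 calls among 13. Ighm, the highest of them at 0.94, was at 0.110 in sham m2 and at 1.44 to 1.87 in the other shams. Markers of T and NK cells had a median of 0.23, and 0.22 without sham m2, with 0 calls among 15. With all arrays 13 of them lay above 0 and 2 below, and Cd8a was the highest (0.56). The part of these lists in the results was not tested.

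The same contrast was available in the 12 week arm, 12 week break sham against 12 week sham, on other mice that share the array set and label runs. In that arm 4 of 17560 probes passed (0.0228%), 1 higher (0.00569%) and 3 lower (0.0171%), and all 4 were among the 51 (100% of 4 and 7.84% of 51). Leaving out each of the 10 arrays of that arm in turn gave 2 to 10 calls, 2 without 12 week break sham m5 or 12 week sham m5 and 10 without 12 week sham m1. Per2 was at 0.92 ± 0.79 in 12 week break sham and 2.71 ± 0.09 in 12 week sham (SD, n = 5 each), a difference of -1.79 (adjusted p = 1.75e-04). Dbp differed by -0.98 (adjusted p = 0.00957), Tspan4 by -0.91 (adjusted p = 0.0309) and Clmp by 0.75 (adjusted p = 0.00349). All 51 probes had the same sign in the 12 week arm, where 57% of all probes tested did, and 37 of them had an unadjusted p below 0.05 there, where 9.56% of all probes did. The 51 were chosen by their size in the 6 week arm, so their sizes in the 2 arms are not compared. Hlf differed by -0.49 there and Arntl by 0.47 (adjusted p of 0.273 and 0.384), Map3k6 by -0.48 and Tsc22d3 by -0.32. By list, the median in the 12 week arm was -0.19 for clock repressors and -0.42 for clock output bZIP factors, with 1 member of each called lower. It was -0.13 for clock activators and nuclear receptors, 0.14 for glucocorticoid-responsive genes and 0.22 for immediate early genes, with 0 calls. In the 6 week arm these medians were -0.59, -0.46, 0.22, -0.18 and -0.11 in the same sequence.

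A test of the difference between arms (limma, interaction) called 0 of 17560 probes, with 890 at an unadjusted p below 0.05, and 0 without sham m2, with 954. The difference between arms was 0.02 for Per2 and -0.01 for Dbp (unadjusted p of 0.944 and 0.978), with 95% intervals of -0.65 to 0.69 and -0.49 to 0.48. It was -0.63 for Slc25a33 and -0.96 for Rgcc, neither past the threshold after adjustment (adjusted p = 0.926 for both).

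**Figure D5:**
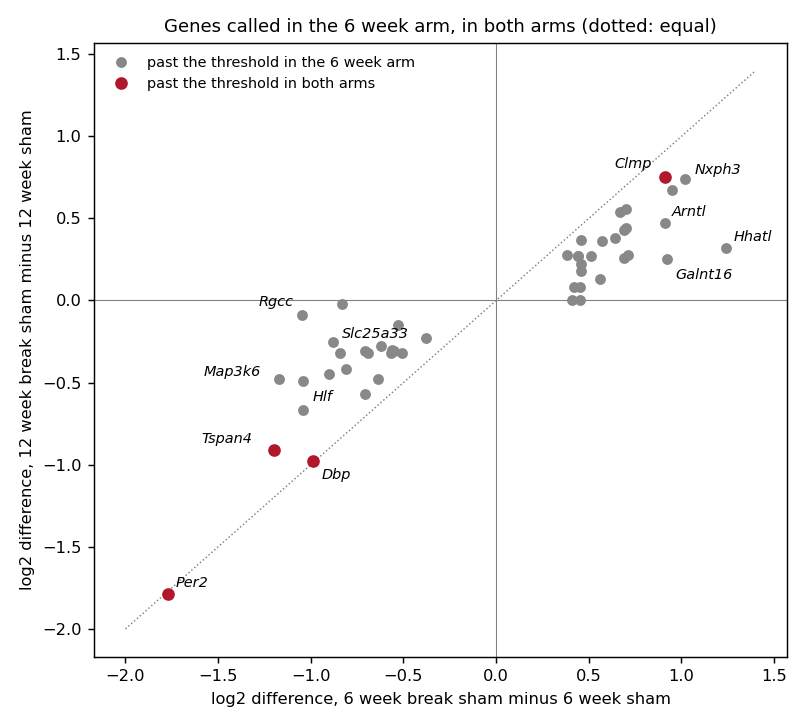
Log2 difference of break sham minus sham for each named gene called in the 6 week arm (x axis) and the same gene in the 12 week arm (y axis), with equality dotted and the 4 genes called in both arms in red. The genes were chosen by their values on the x axis. All points share their sign or lie at 0.00, with Per2 at -1.77 and -1.79 and Dbp at -0.99 and -0.98.

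Sham mice restrained over 12 weeks, and so sampled equally long after the start as the break shams, gave a further comparison that uses the same arrays and is set side by side only. For 12 week sham against 6 week sham, limma called 0 probes (1205 at an unadjusted p below 0.05), and 0 without sham m2 (1293). For 6 week break sham against 12 week sham it called 7 (0.0399%), and 12 without sham m2 (0.0683%), 6 higher (0.0342%) and 6 lower (0.0342%). Per2 differed by -0.62 between 12 week sham and 6 week sham (unadjusted p = 0.0126), and by -1.15 between 6 week break sham and 12 week sham (adjusted p = 0.0509; 0.0484 without sham m2). Dbp differed by 0.23 between 12 week sham and 6 week sham, and by -1.22 between 6 week break sham and 12 week sham (adjusted p = 5.23e-04). Clmp differed by 0.69 (adjusted p = 0.0147), Nxph3 by 0.96 (adjusted p = 0.0172), Pbx2 by 0.56 and Slc25a33 by -0.55 (adjusted p = 0.0433 for both) in 6 week break sham against 12 week sham. The other calls were Zfp503 (-0.65) and Slc1a6 (-0.83), which were not among the 51. Rgcc differed by -0.91 between 12 week sham and 6 week sham (unadjusted p = 3.81e-05), and by -0.09 between 12 week break sham and 12 week sham.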

How the data were processed

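Scanner files of 39 arrays were used, 1 mouse per array, with groups taken from the sample titles. The authors labelled lung cRNA with Cy5 and a universal mouse reference with Cy3, in 1 dye orientation, and quantified spots with ImaGene, and the deposited intensity values of spot and local background were not corrected or normalized. The authors also deposited log2 ratios after global LOWESS, used as an alternative, which correlated with those computed here at 0.975 to 0.996 on the 10 arrays.

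Spot and background medians were corrected by normexp (offset 50), normalized by loess within each array with the 1257 control spots at weight 0, and averaged per probe, which gave 1 log2 ratio for each of 20868 probes. A probe was kept where its Cy5 median exceeded the trimmed mean (5% at each end) plus 3 trimmed SD of the negative controls in at least 4 arrays of a group, which left 17560. Saturated spots (65535) stayed in. One limma model held 8 groups and 5 label runs as a fixed block (limma 3.58.1 in R 4.3.3, files read by data.table version 1.17.8), with Benjamini-Hochberg adjustment over all kept probes and a threshold of 0.05. All p-values in the text come from this model and, with 1 mouse per array, measure the spread between mice. The scripts were tested on simulated data.

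The contrast, the 33 gene lists and the rule for named genes were chosen with earlier results of these data known. The text names the 12 largest called increases and decreases of each fit, list members with the largest differences, and other called genes of known function, which were picked after their values were seen. For a gene with more than 1 probe the brightest stands, and its other probes are given where they disagree. Of the probes, 18235 have 1 symbol, 30 several and 2603 none, and the last 2 kinds were tested but not named. Promoters are from RefSeq. A further probe was read as disagreeing where it missed the threshold. Alternatives covered background, normalization, spot statistics and marks, the probe filter, the block, array weights, the arrays in the fit, the threshold and leaving out each array of the 6 week sham groups. Leaving out each array of the 12 week sham groups was added after seeing the data.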

Additional observations from a re-analysis of the deposited data

Results flagged for a closer look

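In 25 of the 228 gene-by-group sets of 5 arrays examined, 1 array stood far from the other 4 by Dixon's criterion, which chance alone meets in about 5% of sets. The array labelled sham m2 accounted for 7 of them, break sham m1 and m5 for 5 each, sham m5 for 3, sham m1 and break sham m2 for 2 each and break sham m3 for 1. All values are log2 ratios of lung to reference.

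In break sham, m1 was low for Dlg5 (-1.29), Prr13 (0.149) and Ppara (0.383) and high for Rbm3 (-0.0067) and Npas2 (1.52). Break sham m5 was high for Ucp1 (4.68), Cirbp (1.10), Kif11 (-1.96), Cyp1b1 (-0.711) and Nqo1 (-0.909), break sham m2 was high for Slc25a33 (-0.285) and Lpcat1 (3.39), and break sham m3 was low for P4htm (0.563).

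In sham, m2 was high for Cyp1b1 (2.00), Ahrr (2.52), Hmox1 (1.49) and Parm1 (1.45) and low for Cirbp (-0.265), Asb4 (-0.801) and Ighm (0.110). Sham m5 was low for Hhatl (0.118), Meg3 (-1.39) and Npas2 (-0.669), and sham m1 was low for Ccn2 (1.4) and Timp3 (0.688). By label run, the array labelled sham m2 is at place 5 of run 5, which holds 2 arrays labelled 6 week sham and 0 labelled 12 week smoke, and 3 other runs hold a 12 week smoke array at that place. No label was changed.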

How the results depend on the processing

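No called gene reversed its sign among the alternatives run. Of 64 further genes examined and not called with all arrays, 13 crossed 0, among them Npas2 (-0.08 to 0.42), Per3 (-0.16 to 0.07), Cry2 (-0.27 to 0.13), Tef (-0.15 to 0.18), Nfil3 (-0.07 to 0.17) and Rbm3 (-0.14 to 0.18), and 15 of 79 without sham m2. Against 51 calls with all arrays, limma called 78 at an adjusted p under 0.10, 29 from spot means, 15 without the label run block, 5 with the 4 sham groups alone, and 2 and 0 with the 10 arrays alone without and with the block. Without sham m2, against 35, these were 72 at 0.10, 11 without the block, 5 with the sham groups alone and 0 in both fits of the 9 arrays, and further 80 with array weights, 65 with marked spots left out and 58 over probes above the threshold on all 10 arrays. For 12 week break sham against 12 week sham, against 4, the counts were 25 with marked spots left out, 2 without the block, 1 with the sham groups alone and 0 in both fits of the contrast's own arrays, and for 12 week against 6 week sham, against 0, the count was 14 with marked spots left out. For 6 week break sham against 12 week sham, against 7, they were 151 with array weights, 49 with marked spots left out, 47 at 0.10, 15 over probes above the threshold on all 10 arrays, 14 without background correction, 13 from the authors' log2 ratios, 4 with normexp offset 16, with no filter and with the run as a random block, 3 with the sham groups alone, 2 with median centring and without the block, and 0 in both fits of the contrast's own arrays. The causes were not tested. The smaller fits hold both fewer arrays and fewer groups, and the parts of these were not told apart.

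Leaving out each array of the 6 week sham groups in turn gave 32 to 50 calls with all arrays (32 without break sham m5), 11 to 35 without sham m2 (14 without break sham m4, 22 without break sham m5, 11 without sham m4 and 22 without sham m5), and 1 to 13 for 6 week break sham against 12 week sham (2, 11, 1 and 4 without break sham m1, m3, m4 and m5, and 13 and 12 without sham m1 and m2, which are not in that contrast). Leaving out each array of the 12 week sham groups, chosen after seeing the data, gave 2 to 10 calls in the 12 week arm (8 and 2 without 12 week break sham m2 and m5, and 10, 7 and 2 without 12 week sham m1, m4 and m5), 0 to 1 for 12 week against 6 week sham (1 without 12 week sham m4), 11, 1 and 2 for 6 week break sham against 12 week sham without 12 week sham m1, m2 and m5, and 0 in every fit for the difference between arms. Single calls that shrank by over 1.5 times and were lost, beside those in the report, were Eml1 (-0.25 with median centring), P4htm (0.32 with array weights), Dlg5 (-0.40 from the authors' log2 ratios) and, without sham m2, Htra3 (0.44 with array weights) and Clcn2 (-0.40 without sham m1). Centring each array on its median in place of loess moved the median of all probes to 0.065, and 80.0% of 55 calls were then higher in break sham (82.1% of 39 without sham m2), where loess gave 51.0% and 42.9%. No paired analysis was possible because the labels give array numbers and no replicate numbers shared between groups, and groups were matched by label run alone, as the block of the model and within runs. Signal over background of 2.24 to 8.99 limits dim genes such as Arntl.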

Other observations

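Gene groups not described above gave 0 calls with all 39 arrays (limma) and are given by the median log2 difference of 6 week break sham minus 6 week sham over their measured members. The 24 inflammatory mediators had a median of -0.11, the 32 interferon-responsive genes -0.04, the 14 genes of the unfolded protein and integrated stress response -0.11, and the 18 genes of sterol and fatty acid synthesis 0.07. Genes of fatty acid oxidation and fasting had a median of 0.20 over 13 members. Cpt1b, which carries fatty acids into mitochondria of muscle, was at 0.60 (adjusted p = 0.521). It was highest in break sham m5 (1.91), the array with the highest mean log2 ratios of the muscle and adipose lists. The cold-inducible RNA-binding genes Cirbp and Rbm3, which also follow body temperature rhythms, differed by 0.26 and 0.07, and by 0.08 and -0.04 without sham m2.

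Medians of further cell marker lists are given with all arrays, where all probes had 0.0093. Alveolar type I markers had a median of -0.06, club cells -0.11, ciliated cells 0.04, endothelium -0.12, macrophages 0.06, neutrophils 0.07 and dendritic cells with MHC class II genes 0.10. Without sham m2, alveolar type I markers and endothelium were both at -0.17, and the others of these lay between -0.07 and 0.10. Smooth muscle markers had 0.24 with all arrays, with Acta2 at 0.28 (adjusted p = 0.537), and 0.28 without sham m2. With all arrays mesothelium had 0.15 and red cells 0.12, and the thymus and lymph node list had 0.00.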
